A study of Mus musculus with 2 samples.

Results

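The genes described here encode the machinery with which a cell digests part of its own contents: the autophagy genes, the cathepsins, the lysosome-associated membrane proteins (LAMPs) and the subunits of the vacuolar proton pump (V-ATPase). They were chosen by name, as the rows of the expression table whose symbol starts with *Atg* and a digit or with *Atp6v*, is *Cts* or *Lamp* with 1 further letter or digit, or is *Sqstm1*, *Becn1*, *Ulk1*, *Map1lc3a*, *Map1lc3b*, *Gabarap*, *Gabarapl1* or *Tfeb*. No expression value enters that rule, but it was set with earlier results of these data known. The rule found 67 of 22095 genes, of which 24 are autophagy genes, 18 cathepsins, 3 LAMPs, 13 subunits of the V1 sector and 9 subunits of the V0 sector of the pump. No row carries the symbol *Tfeb*; a row under *Tcfeb*, an older symbol of that gene in RefSeq, is given below as a related gene.

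The libraries came from C2C12 cells, a mouse myoblast line that forms myotubes when serum is lowered. Cells carried either siMalat1, a small interfering RNA against the long non-coding RNA *Malat1*, or siNC, a negative control siRNA. Both groups were grown in DMEM with 10% FBS and then induced in differentiation medium with 2% horse serum, and knockdown by a transfected siRNA is transient and partial. Polyadenylated RNA was sequenced from 1 library per group, so no difference below can be set against a spread between replicates, and no p-value, SD or interval is given anywhere.

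Autophagy encloses cytoplasm in a double membrane and delivers it to lysosomes. The ULK1 kinase and a lipid kinase complex start the process, ATG9 and ATG2 supply membrane, and a conjugation system attaches small ubiquitin-like proteins of the ATG8 family (LC3 and GABARAP) to the growing membrane, where receptors such as p62 dock cargo. Lysosomes then degrade that cargo with cathepsins, proteases that work best at low pH. The V-ATPase makes that pH: its V1 sector burns ATP in the cytosol and its V0 sector carries protons through the membrane. In skeletal muscle, this pathway clears damaged mitochondria and proteins and takes part in the remodelling of myoblasts into myotubes.

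In siMalat1 cells as against siNC cells, most of these genes stood close to their control level, slightly on the higher side, and by group median the V1 sector of the pump stood highest. The measure used is the log2 ratio of siMalat1 over siNC, taken on FPKM (fragments mapped to a gene, scaled by its transcript length and by all mapped fragments) plus 0.1. It was computed for the 53 of 67 genes whose mean over the 2 libraries reached 1 FPKM, beside the 11132 genes of the whole table that passed the same filter. The median log2 ratio was 0.09 over the 53 genes and -0.04 over all genes. Of the 53 genes, 38 (71.7%) lay on the higher side of 0 and 15 on the lower side, beside a background of 42.5% of all genes on the higher and 57.5% on the lower side. The number on the higher side was 32 with the FPKM of each library scaled to the same sum and 43 with the median of all genes set to 0. Both settings move all genes as well, so the background shares above do not apply to these counts. By group, the median was 0.09 for the autophagy genes (15 of 24 higher), 0.05 for the cathepsins (7 of 9), 0.08 for the LAMPs (3 of 3), 0.19 for the V1 sector (8 of 10) and 0.07 for the V0 sector (5 of 7). The median of the cathepsins was -0.001 under equal sums, so its side of 0 depended on the scaling.

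Few of the genes were far from their control level. Of the 53, 46 (86.8%) had less than a 1.2-fold difference in either direction, against 78.2% of all genes. At least 1.2-fold higher in siMalat1 were 5 of the 53 (9.43%), beside a background of 8.82% of all genes, and at least 1.2-fold lower were 2 (3.77%), beside a background of 13.0%. Past 1.5-fold, 2 were higher (3.77%, background 2.39%) and 0 were lower (background 1.93%). The shares on the higher side are thus near the background, and the share on the lower side is under it. The 5 higher genes were *Atp6v1c2*, *Atp6v0e2*, *Atg4a*, *Atp6v1g1* and *Atp6v0e*, and the 2 lower ones were *Atg16l2* and *Atg2a*. The plot of log2 ratio against abundance places these 7 genes among all genes: the pair past 1.5-fold had low FPKM, and the genes of the set at 100 FPKM and over lay within 1.2-fold except for *Atp6v1g1* and *Atp6v0e*.

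**Figure D1:**
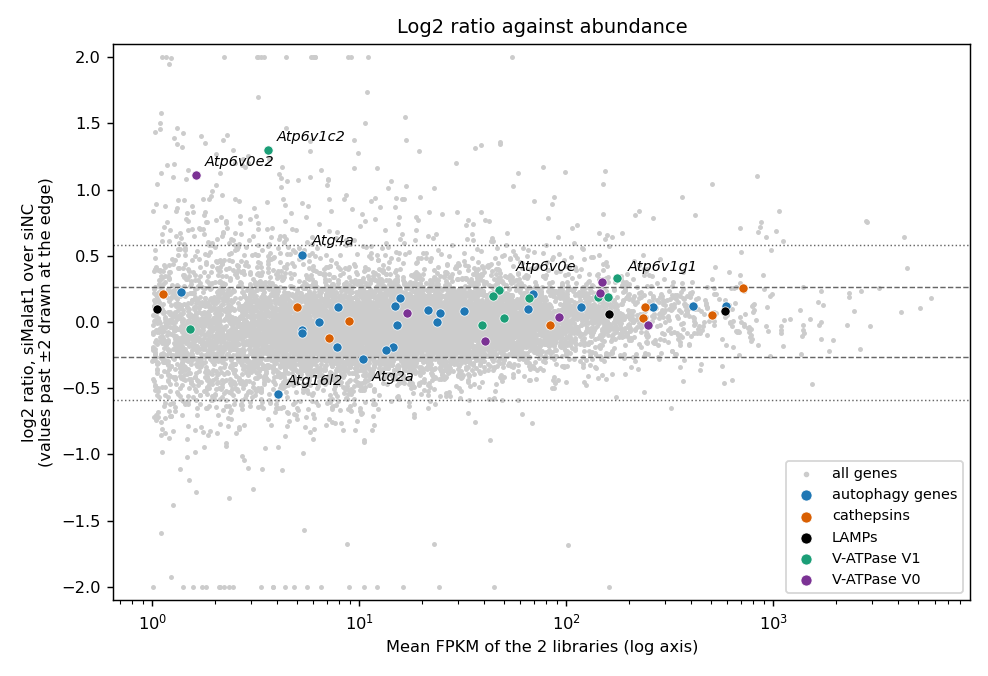
Log2 ratio of siMalat1 over siNC (vertical axis, on FPKM plus 0.1) against the mean FPKM of the 2 libraries (horizontal, log axis). Grey points are the 11132 genes whose mean reached 1 FPKM, coloured points the 53 autophagy and lysosomal genes, dashed lines 1.2-fold and dotted lines 1.5-fold; the 7 named genes are those past 1.2-fold, from *Atp6v1c2* at 1.30 down to *Atg16l2* at -0.54.

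Before the single genes, the libraries themselves are described in a few values. *Malat1* stood at 34.2 FPKM in siMalat1 and at 41.8 FPKM in siNC, a log2 ratio of -0.29. FPKM summed to 502715 in siMalat1 and to 484715 in siNC. Markers of skeletal muscle cells were abundant in both libraries: 8 of 8 passed the filter, and they summed to 9284 FPKM in siMalat1 and 6588 FPKM in siNC. Of those 8, 6 were on the higher side with a median log2 ratio of 0.57, among them *Myog* (857 FPKM in siMalat1 and 525 FPKM in siNC), and *Myod1* and *Cdh15* were on the lower side. That median was larger than the 0.09 of the lysosomal and autophagy genes, and the part of these markers in the values below was not tested. With 1 library of whole cultures per group, more cells in a given state and more RNA per cell cannot be told apart.

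The genes that start autophagy stood on both sides of 0. *Ulk1*, the kinase that starts autophagosome formation, had 13.7 FPKM in siMalat1 and 15.6 FPKM in siNC (log2 ratio -0.19), while its partner *Atg13* had 22.1 FPKM in siMalat1 and 20.7 FPKM in siNC (0.09). *Becn1*, the scaffold of the lipid kinase complex, had 67.6 FPKM in siMalat1 and 63.1 FPKM in siNC (0.10). Its partner *Atg14*, which brings that complex to the site of autophagosome formation, was at nearly the same level in both (6.36 FPKM in siMalat1 and 6.37 FPKM in siNC). Of these 4 genes, the kinase lay farthest from its control level.

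Genes of membrane supply included the lipid transfer protein *Atg2a*, 1 of the 2 genes past 1.2-fold on the lower side. *Atg2a* had 9.44 FPKM in siMalat1 and 11.4 FPKM in siNC, a ratio of 0.825 and a log2 ratio of -0.28, and 88.3% of all genes had a higher log2 ratio. *Atg2b*, its paralog with the same activity, had 5.18 FPKM in siMalat1 and 5.39 FPKM in siNC (-0.06), so the 2 paralogs together had 14.6 FPKM in siMalat1 and 16.8 FPKM in siNC (-0.20). *Atg9a*, a lipid scramblase whose vesicles seed the new membrane, was level, with 23.7 FPKM in siMalat1 and 23.6 FPKM in siNC. The scarce paralog *Atg9b* had 1.5 FPKM in siMalat1 and 1.26 FPKM in siNC (0.23) and held 5.97% of the ATG9 total in siMalat1 and 5.07% in siNC.

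The conjugation machinery was level apart from *Atg16l2* and, less so, *Atg7*. *Atg16l2*, a paralog of the *Atg16l1* scaffold that positions the ATG8 conjugating complex, had 3.27 FPKM in siMalat1 and 4.81 FPKM in siNC, a ratio of 0.679 and a log2 ratio of -0.54. This was the lowest of the 53 log2 ratios, and 97.7% of all genes had a higher one. *Atg16l1* itself, the more abundant of the pair, had 15.1 FPKM in siMalat1 and 15.3 FPKM in siNC (-0.02). In the GENCODE M21 annotation of GRCm38, the span of the *Atg16l2* gene, introns included, overlaps that of *Fchsd2* on the opposite strand by 21372 bases. That is longer than the locus quantified here, on chromosome 7 of mm9 from 108438130 to 108450602, which the authors list without a partner. Whether exons of the 2 genes overlap was not examined. *Atg7*, the E1-like enzyme that activates both ubiquitin-like systems, had 12.6 FPKM in siMalat1 and 14.5 FPKM in siNC (-0.21). The other 4 conjugation genes were within a narrow band on the higher side, *Atg12* at 0.07, the E2-like enzyme *Atg3* at 0.08, the E2-like enzyme *Atg10* at 0.11 and *Atg5*, to which ATG12 is joined, at 0.12.

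The ATG8 genes all lay on the higher side, by similar amounts. *Map1lc3a*, the most abundant gene of the family, had 617 FPKM in siMalat1 and 567 FPKM in siNC (0.12), and *Gabarap* had 273 FPKM in siMalat1 and 252 FPKM in siNC (0.11). *Map1lc3b*, whose lipid-bound protein is the usual marker of autophagosomes, had 122 FPKM in siMalat1 and 113 FPKM in siNC (0.11). *Gabarapl1* had 73.9 FPKM in siMalat1 and 64.0 FPKM in siNC (0.21). The 4 genes together had 1087 FPKM in siMalat1 and 997 FPKM in siNC (0.12), and their shares of that sum hardly differed: *Map1lc3a* held 56.8% in siMalat1 and 56.9% in siNC, *Gabarap* 25.1% in siMalat1 and 25.3% in siNC, *Map1lc3b* 11.3% in siMalat1 and 11.4% in siNC, and *Gabarapl1* 6.80% in siMalat1 and 6.42% in siNC. *Gabarapl2*, which the rule does not match, was at 40.6 FPKM in siMalat1 and 37.4 FPKM in siNC, with the same log2 ratio of 0.12 as the family sum. *Sqstm1*, the gene of the cargo receptor p62, which is itself degraded with its cargo, had 428 FPKM in siMalat1 and 395 FPKM in siNC (0.12).

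The ATG4 proteases, which trim ATG8 proteins before conjugation and free them from the membrane afterwards, differed in make-up more than in total. *Atg4a* had 6.26 FPKM in siMalat1 and 4.37 FPKM in siNC, a ratio of 1.43 and a log2 ratio of 0.51 that 3.05% of all genes exceeded. *Atg4b*, the most abundant of the 4, had 16.7 FPKM in siMalat1 and 14.8 FPKM in siNC (0.18). *Atg4c* and *Atg4d* lay on the lower side, *Atg4c* with 5.11 FPKM in siMalat1 and 5.40 FPKM in siNC (-0.08) and *Atg4d* with 7.34 FPKM in siMalat1 and 8.35 FPKM in siNC (-0.19). The sum of the 4 was 35.4 FPKM in siMalat1 and 32.9 FPKM in siNC (0.11), of which *Atg4a* held 17.7% in siMalat1 and 13.3% in siNC and *Atg4d* 20.7% in siMalat1 and 25.4% in siNC. *Atg4d* was quantified in a shared locus with *Kri1*, which runs on the opposite strand (17.8 FPKM in siMalat1 and 19.7 FPKM in siNC, -0.14), so its value is less certain.

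**Figure D2:**
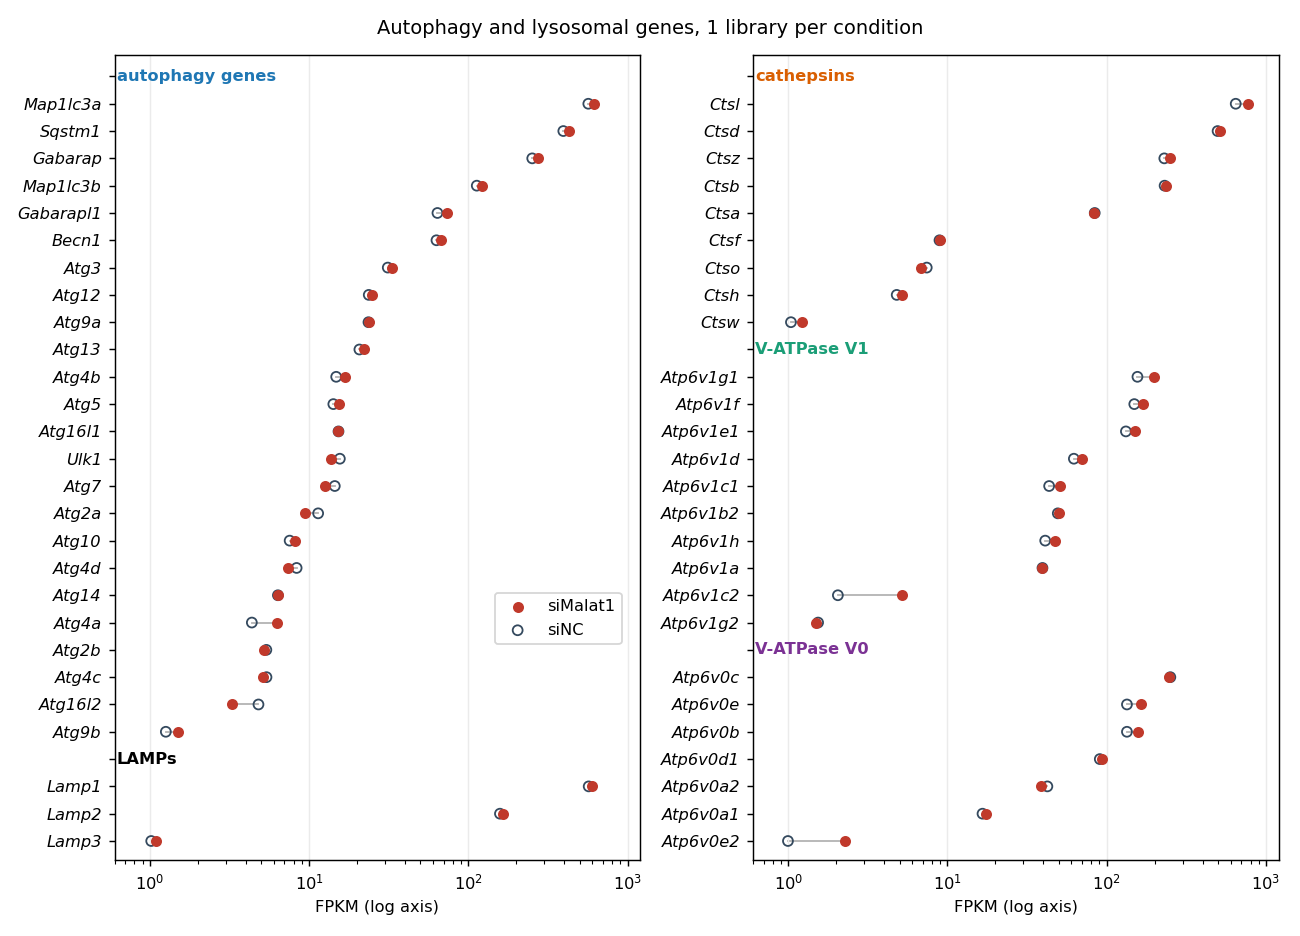
FPKM (horizontal, log axis) of the 53 genes whose mean reached 1 FPKM, in siMalat1 (filled red) and siNC (open dark circles), 1 library each. Most pairs of circles touch; the widest gaps are *Atp6v1c2* (5.19 in siMalat1 and 2.05 in siNC), *Atp6v0e2* (2.27 in siMalat1 and 0.996 in siNC), *Atg16l2* (3.27 in siMalat1 and 4.81 in siNC) and *Atg4a* (6.26 in siMalat1 and 4.37 in siNC).

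Among the cathepsins, the abundant ones were level or slightly to the higher side. *Ctsl*, a cysteine protease and the most abundant cathepsin, had 774 FPKM in siMalat1 and 646 FPKM in siNC, a log2 ratio of 0.26, just inside the 1.2-fold line, and 8.96% of all genes had a higher one. *Ctsd*, the aspartic cathepsin, had 516 FPKM in siMalat1 and 497 FPKM in siNC (0.05). *Ctsz*, a carboxypeptidase, had 248 FPKM in siMalat1 and 230 FPKM in siNC (0.11). These 3 genes lay on 1 side, *Ctsl* alone near the fold line, and *Ctsd* fell on the lower side under equal sums, as *Ctsb* and *Ctsf* did.

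*Ctsb*, which acts as an endopeptidase and a carboxypeptidase, had 237 FPKM in siMalat1 and 231 FPKM in siNC (0.03). *Ctsa*, a serine carboxypeptidase that also protects neuraminidase and beta-galactosidase, had 83.1 FPKM in siMalat1 and 84.1 FPKM in siNC (-0.02). Both were quantified in loci shared with neighbours on the opposite strand, *Fdft1* for *Ctsb* (log2 ratio -0.20) and *Pltp* (-0.15) and *Neurl2* (-0.003) for *Ctsa*. The 4 cathepsins of low abundance were *Ctsf* (8.98 FPKM in siMalat1 and 8.91 FPKM in siNC, 0.01), *Ctso* (6.82 FPKM in siMalat1 and 7.41 FPKM in siNC, -0.12), the aminopeptidase *Ctsh* (5.18 FPKM in siMalat1 and 4.80 FPKM in siNC, 0.11) and *Ctsw*, known from cytotoxic lymphocytes (1.22 FPKM in siMalat1 and 1.04 FPKM in siNC, 0.21). The 9 cathepsins that passed the filter summed to 1880 FPKM in siMalat1 and 1711 FPKM in siNC, a difference to which *Ctsl* contributed the largest part.

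The other 9 cathepsins were under the filter or not seen. *Ctsk*, the collagenase of osteoclasts, had 0.114 FPKM in siMalat1 and 0.0176 FPKM in siNC, and *Ctss*, a protease of antigen-presenting cells, had 0.0839 FPKM in siMalat1 and 0.00969 FPKM in siNC. *Ctsc* (0.0557 FPKM in siMalat1 and 0.0308 FPKM in siNC) and *Ctsg*, a neutrophil protease (0.0582 FPKM in siMalat1 and 0.0135 FPKM in siNC), were as low. Of 4 cathepsins of a rodent cluster on chromosome 13 that is active in placenta, *Ctsm* had 0.0357 FPKM in siMalat1 and 0.0220 FPKM in siNC and *Ctsj*, *Ctsq* and *Ctsr* were listed at 0 in both, as was the aspartic protease *Ctse*. No fold or direction is given for values as low as these.

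Markers of leukocytes, osteoclasts and endothelium were at or near 0 apart from *Cd14*. Of 8 leukocyte markers 1 passed the filter, *Cd14* (4.84 FPKM in siMalat1 and 5.80 FPKM in siNC), the list summed to 5.10 FPKM in siMalat1 and 6.19 FPKM in siNC, and *Emr1*, a defining gene of macrophages, was at 0 in both. Of 4 osteoclast markers 3 were at 0 in both and the list summed to 0.0714 FPKM in siMalat1 and 0.104 FPKM in siNC. The 4 endothelial markers summed to 0.203 FPKM in siMalat1 and 0.307 FPKM in siNC.

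The LAMPs, heavily glycosylated proteins that line the inside of the lysosomal membrane, were close to level. *Lamp1* had 601 FPKM in siMalat1 and 570 FPKM in siNC (0.08), and *Lamp2*, which also serves as the receptor of chaperone-mediated autophagy, had 165 FPKM in siMalat1 and 158 FPKM in siNC (0.06). *Lamp3*, a LAMP of dendritic cells, was barely above the filter with 1.10 FPKM in siMalat1 and 1.02 FPKM in siNC (0.10).

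The proton pump had the highest ratios of the set. Of its 22 genes 17 passed the filter, 13 of them on the higher side (76.5%, background 42.5%), and the median log2 ratio was 0.19. Past 1.2-fold, 4 of the 17 were higher (23.5%, background 8.82%) and 0 were lower (background 13.0%). Of these 4, *Atp6v1c2* and *Atp6v0e2* had low FPKM, and *Atp6v0e2* was under 1 FPKM in siNC. Grouped by the place that a protein fills in the pump, with paralogs summed, 10 of 13 places were on the higher side and 3 on the lower side, and the median over places was also 0.19; places B and d fall on the lower side when the libraries are scaled to equal sums, and places A and c on the higher side when the median of all genes is set to 0. The plot of summed subunit levels shows the places of the peripheral stalks (E and G) and of the rotor (D and F) higher in siMalat1. Of the 3 places on the lower side, A is the catalytic subunit, and a and c take part in proton transport together with b, which was on the higher side.

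In the V1 sector, the subunits of the ATP-splitting ring were level. *Atp6v1a*, which holds the site of ATP hydrolysis, had 39.0 FPKM in siMalat1 and 39.5 FPKM in siNC (-0.02), and *Atp6v1b2*, its non-catalytic partner in the ring, had 50.5 FPKM in siMalat1 and 49.3 FPKM in siNC (0.03). *Atp6v1d*, part of the central rotor, had 70.3 FPKM in siMalat1 and 62.2 FPKM in siNC (0.18). The rotor subunit *Atp6v1f* stood nearly alike, with 170 FPKM in siMalat1 and 149 FPKM in siNC (0.19).

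In the peripheral stalks, which hold the ring still while the rotor turns, *Atp6v1g1* stood above the other V1 genes apart from *Atp6v1c2*. *Atp6v1g1* had 197 FPKM in siMalat1 and 156 FPKM in siNC, a ratio of 1.26 and a log2 ratio of 0.33, and 6.20% of all genes had a higher one. *Atp6v1e1*, which pairs with it in each stalk, had 151 FPKM in siMalat1 and 132 FPKM in siNC (0.19). *Atp6v1h*, a regulator that bridges the sectors, had 47.4 FPKM in siMalat1 and 41.1 FPKM in siNC (0.20). The paralog *Atp6v1g2*, mainly known from neurons, had 1.49 FPKM in siMalat1 and 1.54 FPKM in siNC (-0.05) and held under 1% of the G subunit in either library.

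Subunit C, through which the V1 sector is docked to or released from V0, held the gene with the largest difference of the set. *Atp6v1c2* had 5.19 FPKM in siMalat1 and 2.05 FPKM in siNC, a ratio of 2.53 and a log2 ratio of 1.30, which 0.395% of all genes exceeded. *Atp6v1c1*, the isoform found in most tissues, had 51.2 FPKM in siMalat1 and 43.5 FPKM in siNC (0.24). *Atp6v1c2* therefore held 9.19% of the C subunit in siMalat1 and 4.51% in siNC, and the sum of both was 56.4 FPKM in siMalat1 and 45.6 FPKM in siNC (0.31). Its locus in the table, on chromosome 12 of mm9 from 17273401 to 17331536, is shared with *Pdia6*, an abundant disulfide isomerase gene on the opposite strand (191 FPKM in siMalat1 and 189 FPKM in siNC, 0.02), whose end overlaps that of *Atp6v1c2* by 50 bases in GENCODE M21.

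**Figure D3:**
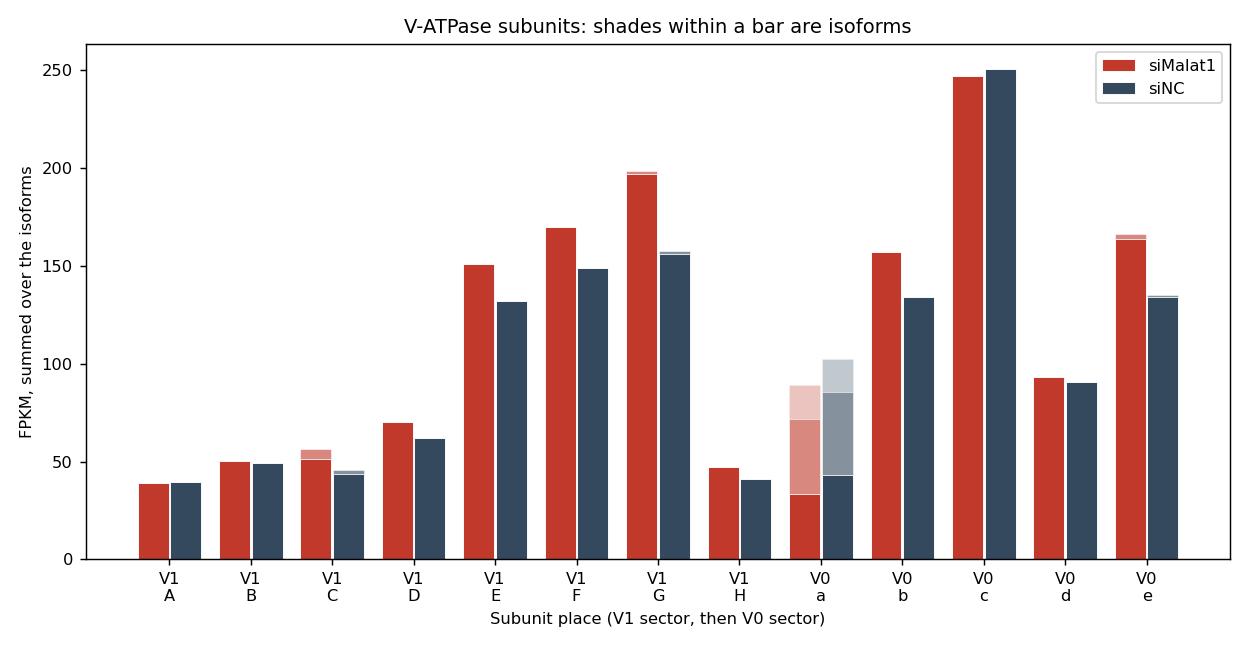
FPKM summed over the isoforms of each V-ATPase subunit place (vertical axis), siMalat1 on the left and siNC on the right of each pair, V1 places first and V0 places after them. Shades within a bar are isoforms, ordered from the bottom by their level in siNC; for place a these are *Tcirg1*, *Atp6v0a2* and *Atp6v0a1*, with sums of 89.2 in siMalat1 and 102 in siNC, while place G shows 198 in siMalat1 and 158 in siNC.

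In the V0 sector, the proton-carrying ring was level in its main part. *Atp6v0c*, the proteolipid that makes up most of the ring, had 247 FPKM in siMalat1 and 251 FPKM in siNC (-0.02), whereas *Atp6v0b*, the related proteolipid present once per ring, had 157 FPKM in siMalat1 and 134 FPKM in siNC (0.22). *Atp6v0d1*, which couples the ring to the rotor, had 93.3 FPKM in siMalat1 and 90.5 FPKM in siNC (0.04). *Atp6v0b* and *Atp6v0c*, which sit side by side in the same ring, thus lay on opposite sides of 0, though the side of *Atp6v0c* turns when the median of all genes is set to 0.

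Subunit e, a small membrane protein of V0, showed the same picture as subunit C. *Atp6v0e* had 164 FPKM in siMalat1 and 134 FPKM in siNC, a ratio of 1.23 and a log2 ratio of 0.30. The minor paralog *Atp6v0e2* had 2.27 FPKM in siMalat1 and 0.996 FPKM in siNC, a ratio of 2.28 and a log2 ratio of 1.11, which 0.638% of all genes exceeded. It was the only 1 of the 53 genes under 1 FPKM in either library, and it held 1.36% of subunit e in siMalat1 and 0.738% in siNC. *Atp6v0e2* lies alone in its locus, on chromosome 6 of mm9 from 48487568 to 48491799. In both places, then, the minor paralog had the higher ratio and the major paralog was also on the higher side. These places hold the largest ratios of the set, and *Atp6v0e2* reached the filter through its siMalat1 value. Place G differed, with the minor *Atp6v1g2* at -0.05 and the major *Atp6v1g1* at 0.33.

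Subunit a, the stator through which protons pass and by which the pump is sent to a given membrane, stood on the lower side. *Atp6v0a2* had 38.5 FPKM in siMalat1 and 42.4 FPKM in siNC (-0.14) and *Atp6v0a1* had 17.5 FPKM in siMalat1 and 16.6 FPKM in siNC (0.07), together 56.0 FPKM in siMalat1 and 59.1 FPKM in siNC (-0.08). *Tcirg1*, the a3 isoform of lysosomes and of the osteoclast membrane, bears a name that the rule does not match, and it had 33.2 FPKM in siMalat1 and 43.3 FPKM in siNC (-0.38). With it, subunit a summed to 89.2 FPKM in siMalat1 and 102 FPKM in siNC (-0.20), and *Tcirg1* held 37.2% of it in siMalat1 and 42.3% in siNC. Counting by name therefore leaves out the pump gene with the lowest ratio.

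The remaining 5 pump genes were at or near 0. The kidney and inner ear isoforms *Atp6v0a4*, *Atp6v1b1* and *Atp6v1g3* were listed at 0 in both libraries, the testis isoform *Atp6v1e2* was listed at 0 in siMalat1 and at 0.0134 FPKM in siNC, and the osteoclast and macrophage isoform *Atp6v0d2* had 0.550 FPKM in siMalat1 and 0.370 FPKM in siNC. An exact 0 in such a table can be a failed estimate, so it is given as listed.

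The 2 genes of the set past 1.5-fold both encode minor paralogs of the pump, and their promoters are printed here with their E boxes (CANNTG), the motif bound by MyoD and other basic helix-loop-helix factors of muscle. Shown are the 250 bases before the RefSeq start site in GRCm38.p6, 5' to 3' on the strand of the gene, with every CANNTG in capitals; the motif reads the same on both strands as a pattern, so 1 strand was searched. These coordinates are of another build than the mm9 loci above. 
*Atp6v1c2* (chr12:17324731-17324980, minus strand): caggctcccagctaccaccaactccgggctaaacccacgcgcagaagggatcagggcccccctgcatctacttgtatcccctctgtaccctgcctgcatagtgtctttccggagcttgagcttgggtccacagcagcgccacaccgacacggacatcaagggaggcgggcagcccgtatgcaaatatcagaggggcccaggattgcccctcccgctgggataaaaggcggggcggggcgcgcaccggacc 
*Atp6v0e2* (chr6:48537319-48537568, plus strand): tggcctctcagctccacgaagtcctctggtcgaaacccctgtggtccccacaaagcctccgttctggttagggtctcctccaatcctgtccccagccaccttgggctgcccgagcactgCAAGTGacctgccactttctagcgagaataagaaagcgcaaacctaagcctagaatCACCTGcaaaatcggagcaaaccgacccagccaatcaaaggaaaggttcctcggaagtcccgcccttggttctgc 
The *Atp6v0e2* sequence holds 2 such motifs and the *Atp6v1c2* sequence holds 0. A RefSeq promoter was at hand for 53 of the 67 genes, 41 of which had also passed the filter. In the same 250 bases, 56.6% of these 53 held at least 1, against 69.3% of all 27025 genes with a promoter, and among genes that passed the filter the shares were 56.1% of the set and 60.1% of all. With the 50 bases after the start added, these last shares were 70.7% of the set and 65.8% of all. A match is a description of the letters and not a binding site, and its absence from this window says nothing of E boxes elsewhere.

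Lysosomal and autophagy promoters are better known for another E box, CACGTG, extended to TCACGTGA in the binding element of the factor TFEB and its relatives TFE3 and MITF. CACGTG is its own reverse complement, so both strands are read at once, and every TCACGTGA contains it and every CACGTG is also a CANNTG. Within 250 bases before and 50 after the start, 13 of the 53 genes of the set with a promoter held CACGTG (24.5%), against 8.09% of all 27025 genes. Among genes that passed the filter, these were 13 of 41 in the set (31.7%) and 12.1% of all. TCACGTGA was in 6 of the 53 (11.3%), against 1.12% of all genes, and in 14.6% of the set and 2.42% of all among genes that passed the filter. CAGCTG, an E box of a type that MyoD binds, was in 20.8% of the 53 and 18.3% of all genes, and in 24.4% of the set and 17.9% of all among genes that passed the filter. Promoters of the set were also richer in G and C, with a median of 57.7% against 52.7% over all genes. The part of this base content in the motif shares was not tested.

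The 7 windows with the full TCACGTGA are printed as 30 bases of GRCm38.p6 each, 5' to 3' on the strand of the gene, with CACGTG in capitals, since they are the nearest to the TFEB element that the set holds. 
*Atg3* (chr16:45158746-45158775, plus strand): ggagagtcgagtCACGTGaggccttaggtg 
*Atp6v0d1* (chr8:105566050-105566079, minus strand): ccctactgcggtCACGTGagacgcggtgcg 
*Atp6v0e* (chr17:26676387-26676416, plus strand): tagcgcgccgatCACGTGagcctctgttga 
*Atp6v1a* (chr16:44139373-44139402, minus strand): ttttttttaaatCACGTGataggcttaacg 
*Ctsa* (chr2:164833749-164833778, plus strand): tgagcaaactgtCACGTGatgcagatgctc 
*Ctsa* (chr2:164833766-164833795, plus strand): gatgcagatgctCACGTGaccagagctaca 
*Ctsd* (chr7:142387908-142387937, minus strand): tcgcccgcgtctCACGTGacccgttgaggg 
They belong to 6 genes, the conjugation enzyme *Atg3*, the pump subunits *Atp6v0d1*, *Atp6v0e* and *Atp6v1a*, and the proteases *Ctsa* and *Ctsd*. *Lamp1* is shown next because it held the most CACGTG motifs of the set, 4 of them, in the same form. 
*Lamp1* (chr8:13159088-13159117, plus strand): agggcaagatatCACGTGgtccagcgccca 
*Lamp1* (chr8:13159104-13159133, plus strand): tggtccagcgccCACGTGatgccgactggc 
*Lamp1* (chr8:13159121-13159150, plus strand): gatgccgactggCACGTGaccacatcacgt 
*Lamp1* (chr8:13159134-13159163, plus strand): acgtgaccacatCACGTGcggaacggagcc 
The other genes with CACGTG were *Atg5*, *Atg7*, *Atg14*, *Atp6v0b*, *Ctsf* and *Ctsl*.

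Among the 41 genes with both a promoter and a log2 ratio, those that carry this E box did not have the higher median. The median log2 ratio was 0.05 over the 13 genes with CACGTG, which ran from -0.21 for *Atg7* to 0.30 for *Atp6v0e*, and 0.11 over the 28 genes that lacked it. Over all genes the medians were -0.02 with the motif and -0.04 without it. Of the genes of the factors, *Tcfeb* had 6.55 FPKM in siMalat1 and 7.21 FPKM in siNC (-0.14), and *Tfe3* had 24.8 FPKM in siMalat1 and 30.1 FPKM in siNC (-0.28). *Mitf* had 3.11 FPKM in siMalat1 and 2.92 FPKM in siNC (0.08). *Zkscan3*, known as a repressor of autophagy genes, had 11.8 FPKM in siMalat1 and 12.1 FPKM in siNC (-0.03). The part of any of these factors in the ratios of the set was not tested, and FPKM do not measure their activity.

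Log2 ratios in this table moved with the length of the transcript, and the set followed that. Among all genes, the median log2 ratio was 0.08 for transcripts under 1000 bases, 0.03 from 1000, -0.04 from 2000 and -0.10 from 4000 bases upward. Among the genes of the set, it was 0.20 (n = 4), 0.12 (n = 15), 0.08 (n = 22) and -0.03 (n = 12) in the same classes. Across genes, Spearman's rho between log2 ratio and length was -0.59 over the 53 genes and -0.27 over the 9937 genes with a known length; these genes share 1 pair of libraries, so the values only describe them. Some of the higher ratios of the set were those of short transcripts, such as *Atp6v0e* (823 bases), *Gabarapl1* (539 bases) and *Atp6v1g1* (1135 bases). The highest of all were those of *Atp6v1c2* (1549 bases), *Atp6v0e2* (1789 bases) and *Atg4a* (2202 bases), and the short *Atp6v0c* (796 bases) stood at -0.02. The lowest ratio was that of a long transcript, *Atg16l2* (6459 bases in GENCODE M21, where its gene is longer than the locus quantified here).

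Set against genes of their own length class, the genes of the set had a median of 0.12 in all. By group it was 0.10 for the autophagy genes, 0.08 for the cathepsins and 0.12 for the LAMPs. For the V1 sector it was 0.19 and for the V0 sector 0.17. *Atp6v1c2* stood at 1.27 and *Atp6v0e2* at 1.08 on this scale, *Atg4a* at 0.55, *Atg16l2* at -0.45 and *Atg2a* at -0.18. Abundance moved with the ratio too: the median of all genes was -0.07 from 1 to 5 FPKM, -0.06 from 5 to 20, -0.01 from 20 to 100 and 0.05 at 100 FPKM and over. The set had 16 genes in that last class, 15 of them on the higher side with a median of 0.12. Of all genes in that class, 61.9% lay on the higher side. From 5 to 20 FPKM the set had 15 genes, 6 of them on the higher side with a median of -0.02, beside 37.1% of all genes. Relative to their abundance class, the 53 genes had a median of 0.07. By group this was 0.06 for the autophagy genes, 0.06 for the cathepsins and 0.03 for the LAMPs. It was 0.16 for the V1 sector and 0.13 for the V0 sector. Length and abundance were not adjusted for together, and their part in the ratios was not tested.

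**Figure D4:**
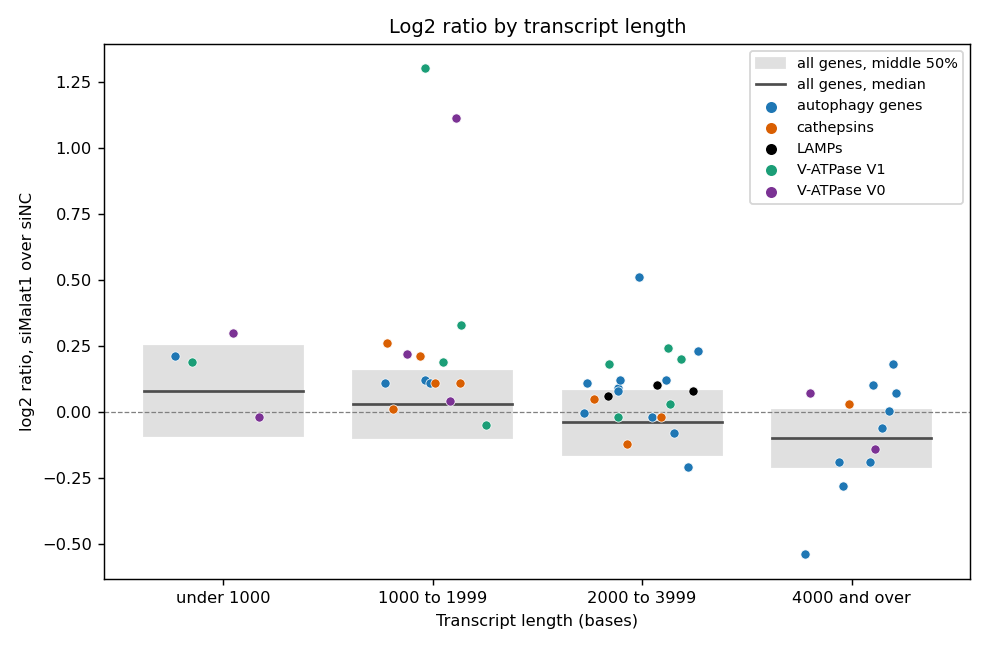
Log2 ratio of siMalat1 over siNC (vertical axis) by class of transcript length (horizontal). Grey boxes span the middle 50% of all genes and dark lines their median, which is 0.08 in the shortest class and -0.10 in the longest; each coloured point is 1 of the 53 genes, and horizontal scatter within a class carries no meaning.

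The rest of the pathway, taken from lists of genes that the rule does not match, did not lean the same way throughout. Beside each list below, the background of all genes was 42.5% on the higher side, 8.82% past 1.2-fold higher and 13.0% past it lower. Partners of the initiation kinases had a median log2 ratio of 0.03 with 11 of 17 genes higher and 0 past 1.2-fold; the highest were the membrane protein *Tmem41b* (0.22) and *Nrbf2*, a partner of the lipid kinase (0.18), and the lowest were the lipid kinase subunit *Pik3r4* (-0.15) and the kinase *Ulk2* (-0.09). Cargo receptors had a median of 0.03 with 8 of 12 higher, 1 past 1.2-fold in each direction. These were *Stbd1*, a receptor of glycogen (42.0 FPKM in siMalat1 and 33.3 FPKM in siNC, 0.33), and *Wdfy3*, an adaptor for protein aggregates (5.49 FPKM in siMalat1 and 6.88 FPKM in siNC, -0.32), and next to them stood *Fam134b*, a receptor of the endoplasmic reticulum (0.20), and *Calcoco1* (-0.15). Fusion factors between autophagosome and lysosome had a median of 0.04 with 8 of 13 higher, led by the SNARE proteins *Vamp8* (140 FPKM in siMalat1 and 120 FPKM in siNC, 0.22) and *Ykt6* (0.15), and with the tether subunit *Vps18* (-0.19) and the adaptor *Plekhm1* (-0.11) lowest.

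Among lysosomal hydrolases other than cathepsins, listed together with their helpers, most genes lay on the lower side, by small amounts. Of 38, 12 were on the higher side (31.6%, background 42.5% of all genes) and 26 on the lower side. Their median of -0.02 is above the -0.04 of all genes and so changes side when that median is set to 0. Past 1.2-fold was 1, on the lower side (2.63%, background 13.0%), the alpha-mannosidase *Man2b1* (8.04 FPKM in siMalat1 and 9.71 FPKM in siNC, -0.27). *Gla* (5.58 FPKM in siMalat1 and 4.86 FPKM in siNC, 0.20) and *Hexa* (107 FPKM in siMalat1 and 94.1 FPKM in siNC, 0.19), which cleave sugars from glycolipids, were the highest, and the iduronate sulfatase *Ids* was next lowest (10.6 FPKM in siMalat1 and 12.7 FPKM in siNC, -0.25). The 38 genes summed to 1773 FPKM in siMalat1 and 1840 FPKM in siNC. *Psap*, the precursor of the saposins that help lipid hydrolases, made up much of that sum with 739 FPKM in siMalat1 and 815 FPKM in siNC. *Psap* alone differed by more than the whole sum did, so the lower sum does not describe the other genes. The cathepsins, with a median of 0.05, and the other hydrolases were not compared by a test.

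Lysosomal membrane proteins had a median of 0.10 with 13 of 19 higher. Highest were the amino acid sensor *Slc38a9* (1.59 FPKM in siMalat1 and 1.22 FPKM in siNC, 0.36) and *Ostm1*, the partner of the chloride transporter ClC-7 (18.1 FPKM in siMalat1 and 14.7 FPKM in siNC, 0.30), and lowest was *Cln3* (0.912 FPKM in siMalat1 and 1.32 FPKM in siNC, -0.49), with *Laptm4b* after it (-0.08). V-ATPase partners had a median of -0.06 with 3 of 9 higher, among them the accessory subunit *Atp6ap2* (52.5 FPKM in siMalat1 and 46.0 FPKM in siNC, 0.19) and *Rnasek* (0.08), and with *Tcirg1* and *Oxr1* (-0.13) lowest.

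**Figure D5:**
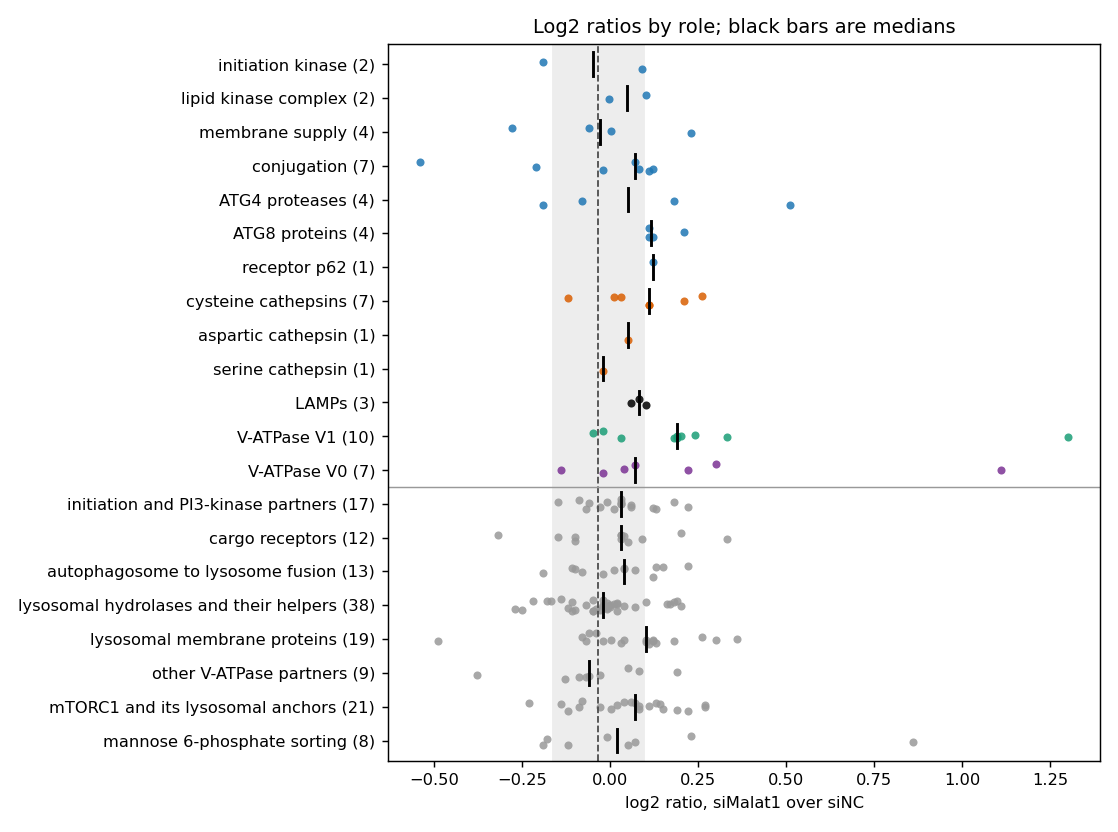
Log2 ratio of siMalat1 over siNC (horizontal axis) by role, with the number of genes in brackets; coloured points above the line are the 53 genes of the set and grey points below it are related genes. Black bars are medians, the dashed line is the median of all genes (-0.04) and the grey band their middle 50%, from -0.16 to 0.10; the bars run from -0.06 for the V-ATPase partners to 0.19 for the V1 sector, leaving aside roles of a few genes.

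The proteasome, the other main route of protein breakdown in muscle, is given beside the set. Of 40 proteasome subunit genes, 36 passed the filter and 34 lay on the higher side (94.4%, background 42.5% of all genes). Their median log2 ratio was 0.19, equal to that of the pump. Past 1.2-fold, 7 were higher (19.4%, background 8.82%) and 1 was lower (2.78%, background 13.0%). The 36 genes summed to 4745 FPKM in siMalat1 and 4169 FPKM in siNC. Against genes of their own length class, their median was 0.17, beside 0.17 for the 17 pump genes. A median like that of the pump was therefore not particular to the lysosome in these libraries.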

How the data were processed

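Polyadenylated RNA of C2C12 cells was sequenced by the authors, 1 library per group. The submitters' processing notes name the mm9 genome, TopHat2 2.0.9 for mapping, Cufflinks 2.1.1 and Cuffdiff 2.1.1. The deposited FPKM of each gene were used as the authors gave them. Columns of the authors' own comparison, a natural log ratio and a call, were not used. The gene annotation and the strand of the libraries are not given in the sources used here, so overlapping genes and antisense partners cannot be separated, and reads of near-identical paralogs may have been split between them. The authors list 11 of the 67 genes, 10 of which passed the filter, in a locus shared with another gene, and these values are less certain. Starts of loci were raised by 1 to count from 1. FPKM hold no counts, so the depth and the counting error are unknown.

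Log2 ratios were computed as log2(FPKM + 0.1) in siMalat1 minus the same in siNC (Python 3.11.15, numpy 2.4.6, pandas 2.3.3, matplotlib 3.10.9), a scale that understates the fold of low genes, and a mean of 1 FPKM was required. The calculation was tested on simulated data. The members, the gene lists and the alternatives were chosen with earlier results of these data known. Values are given in full for the 12 largest log2 ratios, the 3 most abundant genes of each group and paralogs of 1 place, and log2 ratios for the 2 highest and 2 lowest genes of each related list. Other genes were named after their values were seen. Older symbols were matched through RefSeq synonyms. Transcript lengths are medians of principal transcripts in GENCODE M21, known for 89.3% of all genes and 53 of 53 of the set. Promoters are from RefSeq (GRCm38.p6), matched for 53 of 67 genes.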

Additional observations from a re-analysis of the deposited data

How the results depend on the processing

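No paired analysis was possible because each group has 1 library, and for the same reason no replicate could be left out. With the FPKM of each library scaled to the same sum, the median of the cathepsins was -0.001 in place of 0.05 and 1 gene was past 1.5-fold on the lower side. With the median of all genes set to 0, which moves every log2 ratio up by the 0.04 that this median lay under 0, 8 genes were past 1.2-fold higher and 1 lower. With a pseudocount of 1 FPKM, 1 gene was past 1.2-fold lower, and *Atp6v1c2* and *Atp6v0e2* stood at 1.02 and 0.71. With no filter beyond values above 0 in both libraries, 9 genes were past 1.2-fold and 4 past 1.5-fold higher. The genes that this adds are *Ctsk*, *Ctss*, *Ctsg* and *Atp6v0d2*, all under a mean of 1 FPKM, and no direction is read from them. With a mean of at least 5 FPKM the counts were 3 and 0, with 1 past 1.2-fold lower. *Atp6v1c2*, *Atp6v0e2* and *Atg16l2* are then left out. Shares of all genes past a fold were not computed under these alternative settings, so the counts stand without a background. Without genes of shared loci, 1 gene was past 1.5-fold higher, since *Atp6v1c2* is left out. Signs of single genes turned for 6 of 53 under equal sums (*Atg9a*, *Atp6v0d1*, *Atp6v1b2*, *Ctsb*, *Ctsd* and *Ctsf*) and for 5 with the median at 0 (*Atg14*, *Atg16l1*, *Atp6v0c*, *Atp6v1a* and *Ctsa*). Adjustment for length class turned 6 and for abundance class 5; both were added after seeing the data. CACGTG was in 18.9% of the genes of the set with a promoter when only the 250 bases before the start were searched, against 6.86% of all genes. With FPKM alone, counting error cannot be set beside any ratio, and it weighs most on genes of few FPKM such as *Atp6v0e2*.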

Other observations

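The route by which cathepsins reach the lysosome was level except for *Sort1*. Of 8 genes of mannose 6-phosphate tagging and sorting, 4 were on the higher side, with a median log2 ratio of 0.02, and 1 was past 1.2-fold. That gene, *Sort1*, encodes sortilin, a sorting receptor also known from the storage vesicles of the glucose transporter GLUT4, and it had 4.02 FPKM in siMalat1 and 2.16 FPKM in siNC (0.86). *Gnptg*, a subunit of the tagging enzyme, had 30.5 FPKM in siMalat1 and 25.9 FPKM in siNC (0.23), whereas *Gnptab*, the subunits of the same enzyme that carry its catalytic site, had 7.79 FPKM in siMalat1 and 8.91 FPKM in siNC (-0.19), and the adaptor *Gga3* had 8.58 FPKM in siMalat1 and 9.74 FPKM in siNC (-0.18). Cathepsin inhibitors had a median of 0.07 over 4 genes, of which *Cst6* (3.19 FPKM in siMalat1 and 2.85 FPKM in siNC, 0.15) and *Serpinb6a* (303 FPKM in siMalat1 and 287 FPKM in siNC, 0.08) were highest. The secreted cystatin *Cst3* had 742 FPKM in siMalat1 and 765 FPKM in siNC (-0.04), and the cytosolic *Cstb* had 166 FPKM in siMalat1 and 158 FPKM in siNC (0.07).

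Genes of mTORC1, the nutrient-sensing kinase complex that sits on lysosomes and holds autophagy in check, had a median log2 ratio of 0.07. Of 21, 15 were higher (71.4%, background 42.5% of all genes) and 2 were past 1.2-fold higher (9.52%, background 8.82%). Both of these are subunits of Ragulator, the scaffold that anchors the complex to the lysosome: *Lamtor1*, listed under an older symbol, had 72.3 FPKM in siMalat1 and 60.1 FPKM in siNC (0.27), and *Lamtor5*, likewise under an older symbol, had 68.5 FPKM in siMalat1 and 56.8 FPKM in siNC (0.27). *Depdc5* (4.93 FPKM in siMalat1 and 5.80 FPKM in siNC, -0.23) and *Tsc2* (24.0 FPKM in siMalat1 and 26.4 FPKM in siNC, -0.14), which belong to complexes that inhibit the kinase, had the lowest values, and *Mtor* itself was level (11.2 FPKM in siMalat1 and 10.9 FPKM in siNC, 0.04). These lists were described by their values and were not tested.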
